A study of Mus musculus with 4 samples.

Results

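The collagen chain genes are the 38 genes, of 55472 entries in the gene table, whose symbol has the form Col, a number, a and a number, and which held at least 20 UMIs (unique molecular identifiers, each standing for a captured RNA molecule) over all 4 libraries. In all, 44 symbols had that form, and 6 stayed under the minimum. Just inside it lay Col20a1 with 23 UMIs and just outside it Col6a6 with 19 UMIs. The RNA came from dissociated mammary tumours of female FVB mice aged 13 to 14 weeks, and every mouse carried the MMTV-PyMT, Rosa-tdTomato and K14Cre transgenes, so there was no tumour-free or transgene-free group. MMTV-PyMT expresses a viral oncoprotein in the mammary epithelium from a mouse mammary tumour virus promoter. K14Cre expresses Cre recombinase from a human keratin 14 promoter, and Rosa-tdTomato is a red reporter that Cre switches on. Tumour 1 pooled several glands of mouse 1, tumour 2 came from the inguinal gland of mouse 2, tumour 3 from the thoracic gland of mouse 3 and tumour 4 from its inguinal gland. The tissue was minced, digested with Liberase TH and passed over a dead-cell column, so each level describes cells that survived these steps.

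Collagens are secreted or membrane-bound proteins in which 3 chains, each from its own gene or from repeated copies of the same gene product, wind into a triple helix. Fibrillar collagens (types I, II, III, V, XI and XXVII) build the cables of connective tissue, fibril-associated collagens (IX, XII, XIV, XVI) sit on their surface, beaded filaments (VI) lie around cells, network collagens (IV, VIII) form sheets, and anchoring (VII) and membrane-spanning collagens (XIII, XVII, XXIII, XXV) tie cells to the matrix. In the mammary gland fibroblasts are the known source of interstitial collagen, and epithelial, endothelial and mural cells rest on type IV collagen of the basement membrane. Mural cells are the pericytes and smooth muscle cells of vessel walls.

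The stretches before the transcription start are shown for chains that the results below turn on: type I and III fibrillar chains of fibroblasts, Col11a1 and Col5a3 whose distribution differed from theirs, the type IX chains of the epithelial gates, and the hemidesmosome chain Col17a1. Each is read 5′ to 3′ from the RefSeq promoter table (GRCm38.p6, the build of the counts), and the first 7 hold at most 120 bases, the stretch nearest the RefSeq start that lies outside every exon of the GENCODE annotation. That annotation starts Col1a2 further upstream, at base 4504814, so the stretch printed for it lies inside the annotated gene, between exons, and ends 126 bases before the RefSeq start. Capitals mark matches on either strand to any of 3 motifs, of which none holds another: the CCAAT box, the GC box with the letters GGGCGG, and the TATA box with the letters TATAAA. Col9a1 has 2 windows with different starts, and only the stretch of the more upstream start is shown. The other window holds a CCAAT box 18 to 14 bases before its start. Which start was in use was not tested. The last line is the plus strand where the annotated 5′ ends of Col4a1 and Col4a2 overlap, which is exon of both genes.
Col1a2, chr6:4505373-4505492, plus strand: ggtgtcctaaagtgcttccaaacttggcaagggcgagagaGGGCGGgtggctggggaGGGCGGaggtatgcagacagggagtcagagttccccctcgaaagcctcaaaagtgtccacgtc
Col3a1, chr1:45311418-45311537, plus strand: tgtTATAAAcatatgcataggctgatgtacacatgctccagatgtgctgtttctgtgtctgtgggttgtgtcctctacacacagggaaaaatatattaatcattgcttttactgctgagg
Col11a1, chr3:114030420-114030539, plus strand: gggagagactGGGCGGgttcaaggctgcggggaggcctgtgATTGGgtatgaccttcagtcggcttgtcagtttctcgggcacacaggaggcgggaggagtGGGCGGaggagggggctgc
Col5a3, chr9:20815068-20815187, minus strand: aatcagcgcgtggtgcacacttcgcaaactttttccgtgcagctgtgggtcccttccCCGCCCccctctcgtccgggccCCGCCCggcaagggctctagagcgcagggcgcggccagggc
Col9a1, chr1:24177490-24177609, plus strand: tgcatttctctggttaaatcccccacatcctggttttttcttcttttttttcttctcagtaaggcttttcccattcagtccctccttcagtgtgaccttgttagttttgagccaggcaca
Col9a2, chr4:121039316-121039384, plus strand: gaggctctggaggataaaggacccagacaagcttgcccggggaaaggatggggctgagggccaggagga
Col17a1, chr19:47692095-47692214, minus strand: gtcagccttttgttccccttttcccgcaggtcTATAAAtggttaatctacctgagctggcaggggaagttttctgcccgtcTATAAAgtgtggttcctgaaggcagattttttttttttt
Col4a1 and Col4a2, chr8:11312805-11312826, plus strand: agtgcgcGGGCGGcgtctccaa
Of the 38 genes 31 had a promoter window in the table, 34 windows of 300 bases in all (250 bases before the start and 50 after it). GGGCGG occurred in 21 of these 34 windows (61.8%) and in 35.7% of all 32851 windows. CCAAT occurred in 12 (35.3%) against 37.4%, and TATAAA in 5 (14.7%) against 13.6%. These are descriptions of letters and say nothing of the factors that bind there. The type IV chains are arranged in head-to-head pairs: Col4a1 (minus strand) and Col4a2 (plus strand) on chromosome 8 overlap by 22 bases at their 5′ ends, and the start of Col4a5 (plus strand) on the X chromosome lies 1309 bases from that of Col4a6 (minus strand). Col3a1 and Col5a2 are neighbours in opposite orientation on chromosome 1, with starts 191744 bases apart.

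The libraries held 36162 cell barcodes and 120429165 UMIs, with a median of 1922.5 to 3281 UMIs per barcode by tumour. Cells were assigned by summed UMIs of a few genes, with the non-luminal gates first: fibroblast (Dcn and Lum, at least 3), mural (Rgs5, at least 3), endothelial (Cdh5 and Pecam1, at least 2), basal (Krt5 and Krt14, at least 3), and luminal (Krt8 and Krt18, at least 3). A gate of macrophages (C1qa, C1qb and C1qc, at least 3) served as a reference for RNA from other cells. The gates held 1521, 264, 656, 901, 20450 and 3266 cells in that order, 117 cells in more than 1 non-luminal gate were set aside (90 of them in tumour 3), and 8963 cells fell in none. All 6 genes of each gate's own marker list were detected in that gate. Detection alone does not separate the gates, because each list was also found in full in other gates. By summed mean level the fibroblast, mural, endothelial, basal and macrophage lists reached 3570, 1085, 2169, 843 and 8052 CPM in their own gates. In any other gate they reached at most 54.4, 265, 75.3, 113 and 420 CPM. The luminal list was higher in the basal gate (1785 CPM) than in the luminal gate (1600 CPM). Luminal keratins also reached 3 UMIs in 10.3% of fibroblast, 31.4% of mural, 19.8% of endothelial, 55.5% of basal and 16.4% of macrophage gate cells, and in tumour 2 all but 14 of the 130 basal gate cells carried them or C1q transcripts. Of 35535 distinct barcodes 623 occurred in more than 1 library. Levels are UMIs of the gene scaled to a gate total of 1000000 (CPM), given as the mean over mice ± SD (n = 3 mice, tumours 3 and 4 summed). They are compared between gates for the same gene, never between genes, because they are not scaled by length.

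Collagen UMIs were concentrated in the fibroblast gate, which gave 54.5% of all UMIs of the 38 genes, while the much larger luminal gate gave 20.6% and cells in no gate 15.8%. The summed level of the chains was 21203, 20895 and 20826 CPM in the fibroblasts of mice 1, 2 and 3 (20975 ± 201). It was 4241 ± 962 CPM in the mural, 2487 ± 113 in the endothelial, 661 ± 152 in the basal, 400.4 ± 104 in the luminal and 306 ± 81.9 in the macrophage gate. The fibroblast, mural and endothelial gates did not overlap with each other or with the epithelial gates in any mouse. The makeup of these UMIs also differed: fibrillar chains gave 78.3% ± 3.6 of collagen UMIs in fibroblasts and 4.43% ± 4.87 in endothelial cells, while the type IV chains gave 3.51% ± 1.93 and 76.1% ± 4.1. Mural cells lay between the 2, with 42.3% ± 5.0 fibrillar and 29.8% ± 4.7 type IV. In the luminal and basal gates the fibril-associated chains gave the most, 48.4% ± 6.8 and 41.3% ± 7.8. By mean level, 20 of the 38 genes were highest in the fibroblast, 8 in the basal, 4 in the endothelial, 3 in the luminal and 3 in the mural gate. The basal rank of Col11a2 and Col20a1 rested on 5 and 2 UMIs, and the mural rank of Col4a4 and Col10a1 on 1 and 2. Each of these ranks held over the second gate in 1 of 3 mice. Of the 17 genes that reached 100 CPM, 13 were highest in fibroblasts, 3 in endothelial and 1 in mural cells. The same ranking was not made for all genes.

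**Figure D1:**
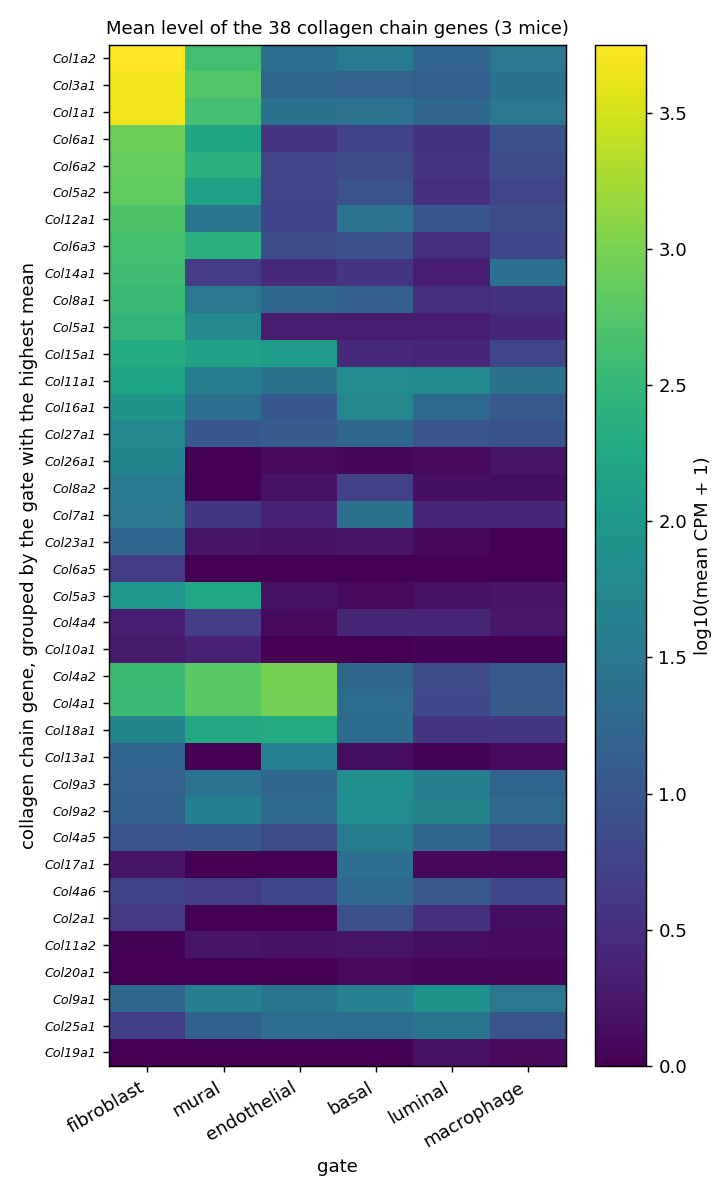
Mean level of each of the 38 collagen chain genes (rows) in each gate (columns), as log10 of the mean CPM over 3 mice plus 1. Genes are grouped by the gate with the highest mean: the 20 genes highest in fibroblasts fill the upper rows, and the 11 highest in the basal or luminal gate the lowest rows.

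The major fibrillar chains were those of fibroblasts. Col1a1, which with Col1a2 makes type I collagen, the main fibril protein of connective tissue, stood at 4777, 4515 and 4746 CPM in the fibroblasts of mice 1 to 3 and at 14.4, 9.40 and 26.1 CPM in luminal cells. Col1a2 stood at 5808, 5612 and 5444 CPM in fibroblasts against 14.6, 7.14 and 24.8. Col3a1, the chain of the thinner type III fibrils, reached 5143, 5447 and 3964 CPM in fibroblasts against 10.7, 5.10 and 20.4. Every fibroblast value of these chains lay above every luminal value. The fitted log2 fold changes of fibroblast over luminal were 8.27 ± 0.53 (SE) for Col1a1, 8.72 ± 0.68 for Col1a2 and 8.85 ± 0.62 for Col3a1, with edgeR adjusted p of 1.41e-07, 8.16e-07 and 2.96e-07.

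Type V collagen, which controls the width of type I fibrils, followed the same order. Col5a1 was at 285 ± 33.6 CPM in fibroblasts and 0.993 ± 0.623 in luminal cells, and Col5a2 at 680 ± 72.5 against 2.32 ± 1.24, log2 fold changes of 8.10 ± 0.34 and 8.19 ± 0.32. Over all chains, 29 of the 38 could be tested across gates. Of these, 23 were higher in fibroblasts than in luminal cells, where 26.3% of all 10494 genes tested were, and 6 were lower, where 23.1% of all genes were. The median log2 fold change was 6.29 over the tested chains and -0.04 over all genes tested; chains that passed the filter only through the gate where they are high are among the 29. The 9 chains under the filter were Col2a1, Col4a4, Col6a5, Col10a1, Col11a2, Col17a1, Col19a1, Col20a1 and Col23a1.

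The minor fibrillar chain Col11a1, which starts and thins fibrils together with type II or type I collagen, was shared between fibroblasts and epithelium. It stood at 131, 73.2 and 241 CPM in the fibroblasts of mice 1 to 3, at 33.2, 89.1 and 56.8 CPM in luminal cells and at 27.3, 90.4 and 70.7 CPM in basal cells. In mouse 2 the luminal and basal levels were above the fibroblast level. The difference of fibroblast over luminal was 1.42 ± 0.40 on the log2 scale (edgeR adjusted p = 0.0123, higher in 2 of 3 mice). It did not pass without mouse 1 (adjusted p = 0.18), without mouse 3 (0.31), without the count filter (0.052) or with doubled gate thresholds (0.056). Col27a1, a fibrillar chain known from cartilage, was at 54.9 ± 9.3 CPM in fibroblasts and 8.87 ± 9.05 in luminal cells (log2 fold change 2.64 ± 0.35, adjusted p = 6.84e-06).

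Type VI collagen, whose 3 main chains assemble into beaded filaments around cells, was highest in fibroblasts and next highest in mural cells. Col6a1 stood at 882, 701 and 913 CPM in the fibroblasts of mice 1 to 3 and at 1.82, 0.889 and 4.91 CPM in luminal cells (log2 fold change 8.46 ± 0.46, adjusted p = 2.95e-08). Col6a2 was at 741 ± 174 and Col6a3 at 442 ± 95.3 CPM in fibroblasts, against 2.75 ± 1.86 and 2.15 ± 1.43 in luminal cells. Mural cells held Col6a1, Col6a2 and Col6a3 at 157 ± 58.4, 251 ± 61.6 and 248 ± 87.3 CPM. The mural level was below the fibroblast level by 2.66 ± 0.44 for Col6a1 and 1.82 ± 0.43 for Col6a2 on the log2 scale, while Col6a3 did not pass (-1.08 ± 0.41, adjusted p = 0.119). The Col6a2 difference did not pass with DESeq2 (adjusted p = 0.21), without the mouse as a block (0.084), with doubled thresholds (0.071), or without mouse 1 (0.22) or mouse 3 (0.21), nor did that of Col6a1 without mouse 1 (0.080). The type VI chain Col6a5 was found at 3.70 ± 1.56 CPM in fibroblasts, with 22 UMIs there, and with 0 UMIs in the mural, endothelial, basal and macrophage gates.

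Among the fibril-associated chains, Col12a1 and Col14a1 belonged to fibroblasts. Col12a1, known from tissues under tension, stood at 526, 436 and 574 CPM in the fibroblasts of mice 1 to 3 and at 7.57, 10.3 and 9.58 CPM in luminal cells (log2 fold change 5.78 ± 0.22, adjusted p = 4.82e-16). Col14a1 stood at 353, 593 and 247 CPM against 1.19, 0.593 and 1.44 CPM (8.47 ± 0.43, adjusted p = 6.12e-09). Col16a1, which links fibrils to other matrix, was spread more widely, with 87.3 ± 17.2 CPM in fibroblasts, 54.0 ± 21.1 in basal, 22.3 ± 11.5 in mural and 18.3 ± 2.9 in luminal cells. Its fibroblast level lay above its luminal level in every mouse (2.16 ± 0.19).

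The type VIII chains and Col26a1 had their highest mean in fibroblasts. Col8a1, a chain of hexagonal networks known from vessel walls and the cornea, stood at 162, 604 and 300 CPM in the fibroblasts of mice 1 to 3 and at 1.64, 1.84 and 2.85 CPM in luminal cells (7.36 ± 0.58, adjusted p = 8.46e-07). It was also found at 29.4 ± 28.9 CPM in mural, 17.0 ± 19.2 in endothelial and 13.0 ± 13.2 in basal cells. Its partner Col8a2 was at 34.8 ± 6.1 CPM in fibroblasts and 4.46 ± 4.13 in basal cells, and 0 of its UMIs lay in the mural gate. Col26a1 held 372 UMIs in fibroblasts, 0 in mural, 1 in endothelial and 1 in basal cells. Against 3 counts over the whole mural gate, the fibroblast level was at least 20.8-fold higher for Col26a1 and at least 8.27-fold higher for Col8a2, with UMIs pooled over mice. Tumour 3 held 335 of the 372 Col26a1 UMIs. Without tumour 3 in either gate the bounds were 2.80-fold and 6.12-fold, and with the mean over mice they were 12.0-fold and 8.77-fold.

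Mural cells had 17 of the 29 tested chains at lower levels than fibroblasts, and Col18a1 and Col5a3 at higher ones. Of the 29 tested chains, 15 were higher in mural than in luminal cells (9.56% of all genes tested) and 1, Col9a1, was lower (7.77% of all genes). Against fibroblasts 17 were lower (8.84% of all genes) and 4 were higher (4.77% of all genes). The fibrillar chains Col1a1, Col1a2 and Col3a1 stood at 430 ± 169, 408 ± 155 and 551 ± 88.4 CPM, 3.69 ± 0.47, 4.08 ± 0.60 and 3.44 ± 0.52 below fibroblasts on the log2 scale. Their mural level lay above the luminal level in all 3 mice, by 4.59 ± 0.50 for Col1a1. The number of chains lower in mural than in fibroblast cells was 10 without mouse 1 and 9 without mouse 3, and the number higher was 2 without mouse 3. Col9a1 did not pass against luminal cells without the mouse as a block (adjusted p = 0.068) or without mouse 3 (0.053).

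Col18a1, described below with the vessel chains, was higher in mural cells than in fibroblasts in 3 of 3 mice (184 ± 34.3 against 50.0 ± 12.5 CPM, 1.55 ± 0.27, edgeR adjusted p = 7.84e-05). Col5a3, an alternative chain of type V collagen, was higher too. It stood at 124, 242 and 169 CPM in the mural cells of mice 1 to 3 and at 91.6, 102 and 86.7 CPM in their fibroblasts, so that the mural value was above the fibroblast value in each mouse. The difference was 0.78 ± 0.24 on the log2 scale (edgeR adjusted p = 0.0232), but it did not pass with DESeq2 (adjusted p = 0.096), without the mouse as a block (adjusted p = 0.098) or without mouse 3 (adjusted p = 0.33). Endothelial cells held 2 Col5a3 UMIs in all, and basal cells 2. The other 2 chains higher in mural cells than in fibroblasts were Col9a1 (1.11 ± 0.33) and Col25a1 (1.74 ± 0.59, higher in 2 of 3 mice). Luminal keratins reached 3 UMIs in 31.4% of mural and 10.3% of fibroblast gate cells. With cells of mixed gates left out, the log2 fold changes were 1.09 for Col9a1 and 1.16 for Col25a1, and neither passed (adjusted p = 0.37 and 0.67). Nor did they pass without mouse 3 (0.43 and 0.63). The part of luminal RNA in these differences was not tested.

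The ratios of Col4a1 to Col4a2 and of Col5a1 to Col5a2 overlapped between the fibroblast and mural gates. Those of Col5a3 to Col5a2, Col6a3 to Col6a1, Col6a1 to Col6a2 and Col1a1 to Col1a2 did not. The ratio of Col5a3 to Col5a2 UMIs was 0.143, 0.133 and 0.137 in the fibroblasts of mice 1 to 3 and 1.38, 1.62 and 0.989 in mural cells. Col6a3 to Col6a1 was 0.436, 0.557 and 0.605 in fibroblasts and 1.88, 1.71 and 1.29 in mural cells. For both pairs, all mural ratios were above all fibroblast ratios. Col6a1 to Col6a2 went the other way, 1.14 ± 0.13 in fibroblasts and 0.617 ± 0.170 in mural cells. Col1a1 to Col1a2 was 0.833 ± 0.035 in fibroblasts and 1.05 ± 0.15 in mural cells, a smaller shift. By contrast Col5a1 to Col5a2 was 0.420 ± 0.043 and 0.427 ± 0.064, and Col4a1 to Col4a2 was 1.02 ± 0.15 in fibroblasts, 0.985 ± 0.061 in mural and 0.967 ± 0.146 in endothelial cells. The differences of these ratios were not tested.

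**Figure D2:**
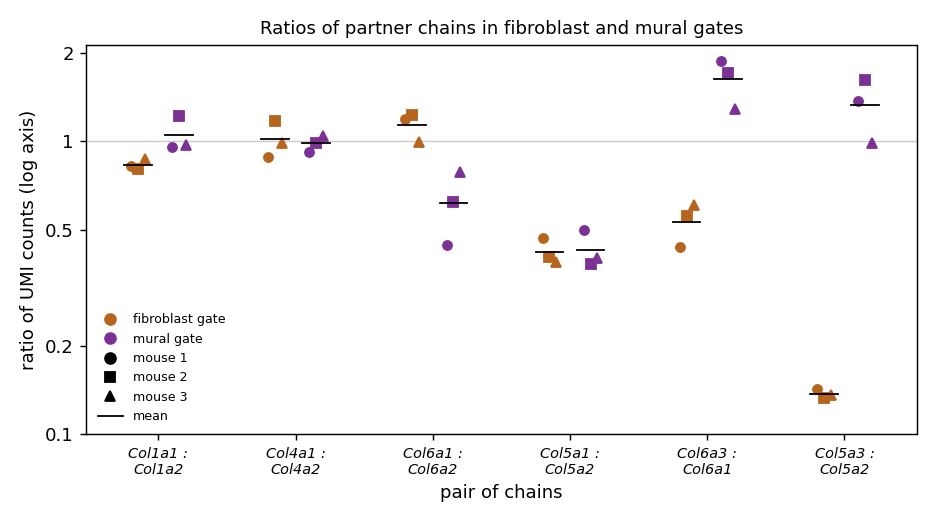
Ratio of the summed UMI counts of 2 partner chains (log axis) in the fibroblast and mural gates; each point is a mouse and each bar the mean of 3 mice. The Col5a3 to Col5a2 ratio lies between 0.133 and 0.143 in fibroblasts and between 0.989 and 1.62 in mural cells, while the Col5a1 to Col5a2 ratios of the gates overlap.

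Endothelial cells had the highest mean levels of Col4a1, Col4a2, Col18a1 and Col13a1. Col4a1 and Col4a2, whose products form the common type IV network, stood at 1072, 848 and 848 CPM and at 986, 1054 and 841 CPM in the endothelial cells of mice 1 to 3. The luminal levels were 5.66 ± 2.11 and 6.40 ± 2.50 CPM, and the log2 fold changes were 7.13 ± 0.40 and 7.10 ± 0.47 (edgeR adjusted p = 7.56e-08 and 3.26e-07). Fibroblasts held Col4a1 and Col4a2 at 357 ± 194 and 365 ± 211 CPM. Their 1521 cells gave 2198 and 2228 UMIs of these genes, and the 656 endothelial cells 1589 and 1650. Mural cells held 608 ± 93.9 and 617 ± 88.3 CPM, and in all 3 mice the endothelial level was above the mural level, although neither difference passed (0.59 ± 0.35, adjusted p = 0.42, and 0.69 ± 0.41, adjusted p = 0.42).

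Col18a1, whose C-terminal fragment is endostatin, stood at 219, 201 and 157 CPM in endothelial cells and at 213, 192 and 146 CPM in mural cells, and at 2.80 ± 0.40 CPM in luminal cells (endothelial over luminal 5.84 ± 0.24, adjusted p = 2.4e-19). The related multiplexin Col15a1 was at 109 ± 35.4 CPM in endothelial, 139 ± 81.3 in mural and 205 ± 96.6 in fibroblast cells, and its levels in these 3 gates overlapped between mice. Col13a1, a membrane-spanning chain of adhesion sites, stood at 86.1, 33.1 and 17.4 CPM in the endothelial cells of mice 1 to 3 and at 15.7, 2.99 and 26.6 CPM in fibroblasts, with 0 UMIs in mural cells. Against 3 counts over the mural gate its endothelial level was at least 6.44-fold higher with UMIs pooled over mice, 5.36-fold without tumour 3 and 11.5-fold with the mean over mice.

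In total 5 tested chains were higher in endothelial than in luminal cells (18.1% of all genes tested): Col4a1, Col4a2, Col13a1, Col15a1 and Col18a1. The 6 lower ones (16.9% of all genes) were the type IX chains Col9a1, Col9a2 and Col9a3, and Col4a5, Col4a6 and Col25a1. Of these, Col25a1 was lower in 2 of 3 mice, and Col25a1, Col4a5 and Col4a6 did not pass with DESeq2 (adjusted p = 0.070, 0.086 and 0.12). Without mouse 3, 2 chains were lower, and Col25a1 (0.51), Col4a5 (0.16) and Col9a3 (0.057) did not pass; Col9a2 did not pass without the mouse as a block (0.10) or without mouse 1 (0.055). Col4a6 also failed with RLE size factors (0.064), without mouse 1 (0.067) or mouse 2 (0.12), with tumours as units (0.093) and without the deepest cells (0.060). Compared with mural cells, 10 were lower (4.13% of all genes), all of them chains of types I, III, V, VI and XII, and Col13a1 alone was higher (6.32% of all genes). Without mouse 1, 6 were lower, and the number higher was 3 without mouse 2 and 0 without mouse 3. The fibrillar chains of the endothelial gate differed between libraries: Col1a1 was at 2.55 CPM in tumour 2, 33.2 CPM in tumour 4 and 72.5 CPM in tumour 3. The summed level of 6 fibroblast markers in that gate ran from 28.2 to 54.4 CPM by tumour. Its lowest value was in tumour 4, not in tumour 2. The part of RNA from other cells in these values was not tested.

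**Figure D3:**
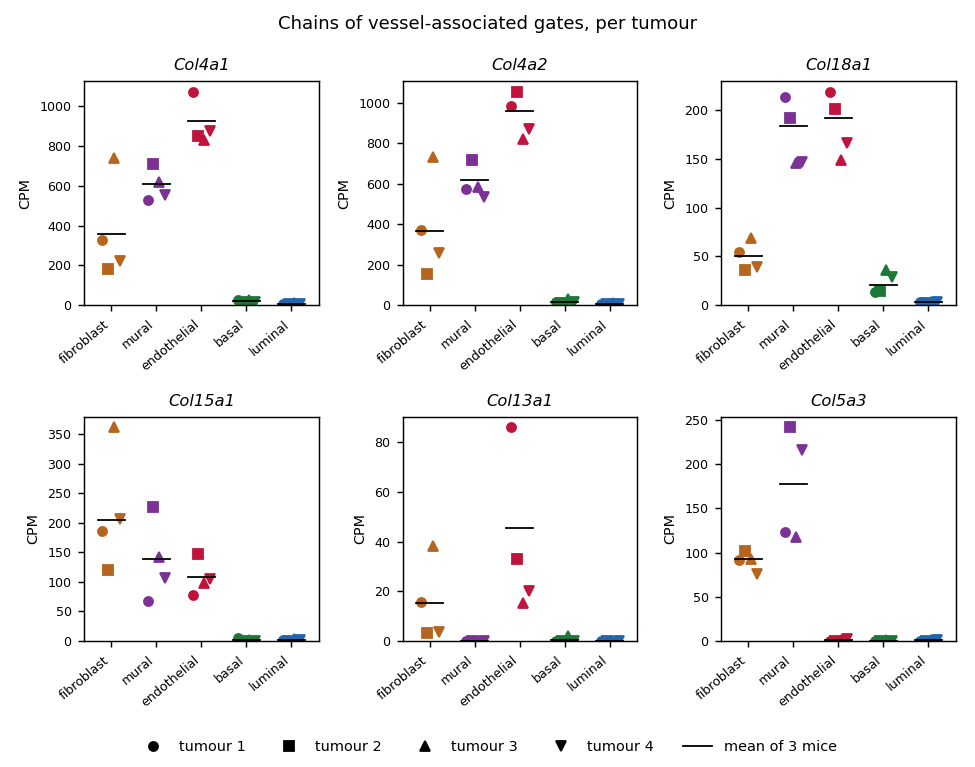
Level (CPM, from 0) of 6 chains in 5 gates; each symbol is a tumour and each bar the mean of 3 mice. Col4a1 and Col4a2 are highest in endothelial cells in every mouse, Col5a3 is found in mural cells and fibroblasts, and Col13a1 has 0 UMIs in mural cells.

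Endothelial cells with at least 1 UMI of the tip-cell genes Esm1, Apln or Angpt2 were set against those with 0. Tip cells lead sprouting vessels. Col4a1 was at 1667, 1170 and 1084 CPM with these genes and 880, 637 and 778 CPM without them in mice 1 to 3, and Col4a2 at 1186, 1369 and 1177 against 921, 848 and 742 CPM. Both were higher in 3 of 3 mice, by 0.65 ± 0.14 and 0.51 ± 0.13 on the log2 scale, and neither passed (edgeR adjusted p = 0.0854 and 0.13). Only 4 chains could be tested there, 0 were called in either direction (0.261% of all 2686 genes tested were higher and 0.149% lower), 2 had an unadjusted p under 0.05, and DESeq2 called 0. With tumours as units 2 of these chains passed, but that setting takes tumours 3 and 4 of the same mouse as separate units. It therefore adds no further animal to the 3 mice.

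In the basal gate, defined by keratins 5 and 14, Col7a1 and Col18a1 were among the chains above the luminal level. The gate was not purely basal: the 6 luminal markers summed to a mean of 1785 CPM in it (1141 to 2603 by tumour), against 1600 CPM in the luminal gate, and their part in these results was not tested. Of the tested chains 8 were higher in basal than in luminal cells (4.93% of all genes tested) and 1, Col9a1, was lower (2.73% of all genes). Col7a1, which forms the anchoring fibrils under stratified epithelia, stood at 27.3, 9.15 and 36.2 CPM in the basal cells of mice 1 to 3 and at 0.638, 2.76 and 1.36 CPM in luminal cells (3.76 ± 0.45, edgeR adjusted p = 1.34e-05). Its highest mean was in fibroblasts, 31.1 ± 8.6 CPM on 164 UMIs, against 24.2 ± 13.8 CPM in basal cells. Col18a1 stood at 13.6, 14.9 and 33.0 CPM against 3.10, 2.34 and 2.96 CPM (3.12 ± 0.29, adjusted p = 2.5e-09). Every basal value of both genes lay above every luminal value.

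Col16a1 (1.41 ± 0.21), Col12a1 (1.23 ± 0.28), Col8a2 (2.71 ± 0.71) and Col9a3 (0.85 ± 0.19) were also higher in basal than in luminal cells. Col12a1 did not pass with DESeq2 (adjusted p = 0.058), with tumours as units (0.096) or without mouse 3 (0.50), and Col16a1 did not pass without mouse 3 (0.059). Also higher were the head-to-head neighbours Col4a5 and Col4a6. Their products form the type IV network of skin and smooth muscle. Col4a5 stood at 45.4, 32.0 and 33.0 CPM in basal and 12.4, 18.4 and 18.4 CPM in luminal cells (0.94 ± 0.24, adjusted p = 0.00807), and Col4a6 at 18.2, 19.5 and 17.3 against 10.3, 12.2 and 8.06 CPM (0.89 ± 0.27, adjusted p = 0.0297). Neither passed without the mouse as a block (adjusted p = 0.098 and 0.31) or without mouse 1 (0.057 and 0.090), and Col4a5 did not pass without mouse 3 (0.25) nor Col4a6 without the count filter (0.0996) or the deepest cells (0.070). The number of chains higher in basal cells was 5 without mouse 1, 17 without mouse 2 and 1 without mouse 3. The 6 fibroblast markers summed to between 5.72 and 127 CPM in the basal gate by tumour, and their part in these results was not tested.

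Col17a1, the transmembrane collagen of hemidesmosomes, had too few UMIs for the test. It stood at 40.9, 2.29 and 24.8 CPM in the basal cells of mice 1 to 3 and at 0.274, 0.0593 and 0.244 CPM in luminal cells, and it had 0 UMIs in mural and endothelial cells. The low value came from tumour 2, where nearly all basal gate cells also carried luminal keratins or C1q transcripts. The median depth of basal gate cells was 6115 UMIs in tumour 2, against 1785.5 to 3113.5 UMIs in the other tumours. The part of either in the low value was not tested. Thinned to 1500 UMIs a cell, 0.769% to 5.23% of basal cells by tumour had a Col17a1 UMI (1.54% to 9.19% unthinned), against 0% to 0.260% of macrophage gate cells (0% to 0.237% unthinned). The median depth was 3035 UMIs in basal and 2123 UMIs in macrophage gate cells. Among the gates, the fibrillar cartilage chain Col2a1 likewise had its highest mean in basal cells, at 13.6, 2.29 and 6.29 CPM on 21 UMIs. Of its 366 UMIs, however, 214 lay in cells of no gate and 119 in luminal cells.

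Luminal cells led fibroblasts in a short list of chains. The 6 chains lower in fibroblasts than in luminal cells were Col9a1, Col9a2, Col9a3, Col25a1, Col4a5 and Col4a6, and each was lower in 3 of 3 mice. Without mouse 3 the number was 4, and Col4a5 did not pass (-0.70, edgeR adjusted p = 0.32). It was 5 with cells of mixed gates left out. The type IX chains form a fibril-associated trimer best known from cartilage. Col9a1 stood at 51.0, 116 and 76.7 CPM in the luminal cells of mice 1 to 3 and at 13.1, 25.4 and 14.7 CPM in fibroblasts (fibroblast over luminal -2.26 ± 0.20, edgeR adjusted p = 1.77e-12). Col9a2 stood at 24.3, 72.1 and 45.1 CPM against 13.1, 13.4 and 14.7 CPM, and Col9a3 at 25.2, 43.8 and 47.4 CPM against 0, 20.9 and 21.4 CPM. No luminal value of these chains was below a fibroblast value of the same mouse, and mouse 1 had the lowest luminal level of all 3.

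Within the epithelium the chains of type IX were not distributed alike. Col9a1 was lower in basal than in luminal cells (44.6 ± 10.1 against 81.3 ± 32.8 CPM, -1.01 ± 0.18, adjusted p = 0.000126), Col9a3 was higher in basal cells (73.4 ± 20.7 against 38.8 ± 11.9 CPM, adjusted p = 0.00237), and Col9a2 did not pass (65.1 ± 18.2 against 47.1 ± 24.0 CPM, adjusted p = 0.21). The ratio of Col9a1 to Col9a2 UMIs was 2.10, 1.61 and 1.70 in luminal cells and 0.90, 0.817 and 0.454 in basal cells of mice 1 to 3, so the ranges did not overlap; this difference of ratios was not tested. Without the mouse as a block neither Col9a1 (adjusted p = 0.16) nor Col9a3 (adjusted p = 0.13) passed between basal and luminal cells, and Col9a3 did not pass without mouse 3 (adjusted p = 0.42).

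Col25a1, a membrane-spanning collagen known from nerve and muscle, was at 22.0, 33.3 and 28.4 CPM in luminal cells and at 0, 7.47 and 4.63 CPM in fibroblasts (fibroblast over luminal -2.67 ± 0.33, adjusted p = 5.99e-09). It differed between the glands of mouse 3: luminal cells of the thoracic tumour held 11.5 CPM (95% Poisson interval 9.94 to 13.3) and those of the inguinal tumour 42.4 CPM (39.6 to 45.3), a ratio of 0.272 (0.231 to 0.318). These intervals cover counting error only, and there is no replicate of either gland in this mouse. The same order was seen for basal (20.8 and 36.6 CPM) and macrophage gate cells (1.70 and 20.6 CPM).

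Free RNA or cells caught together can carry epithelial transcripts into other gates, so the luminal levels were set against macrophage gate cells. Of the tested chains 7 were higher in luminal than in macrophage gate cells (19.8% of all genes tested), all in 3 of 3 mice: Col9a1 (1.21 ± 0.16), Col9a2 (1.21 ± 0.23), Col9a3 (1.17 ± 0.20), Col25a1 (1.51 ± 0.24), Col4a5 (1.01 ± 0.26), Col4a6 (0.90 ± 0.29) and Col16a1 (0.73 ± 0.23). Without mouse 3 only 4 passed: Col16a1 (adjusted p = 0.33) and Col4a5 (0.13) were among those that did not. Col16a1 did not pass with DESeq2 (0.16) either, and without the mouse as a block Col16a1 (0.12), Col4a6 (0.056) and Col9a2 (0.062) did not. The luminal to macrophage ratio of mean levels was 2.60, 2.57 and 2.52 for Col9a1, Col9a2 and Col9a3, 3.48 for Col25a1, 2.18 for Col4a5, 1.96 for Col4a6 and 1.75 for Col16a1. The 6 luminal markers gave ratios of 2.50 to 3.46, above those of Col4a5, Col4a6 and Col16a1: 2.80 for Epcam, 2.50 for Krt7, 2.92 for Krt19, 3.12 for Cldn3, 3.32 for Cldn7 and 3.46 for Elf5. Col11a1 was at 59.7 ± 28.1 CPM in luminal and 24.5 ± 12.3 in macrophage gate cells and did not pass (1.13 ± 0.43, adjusted p = 0.0606).

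At a fixed depth of 1500 UMIs, Col9a1 was found in 7.11% to 16.5% of luminal cells by tumour (13.0% to 34.4% unthinned) and in 1.52% to 5.57% of macrophage gate cells (3.41% to 12.3% unthinned). The median depths were 3295 UMIs for luminal and 2123 UMIs for macrophage gate cells. Col9a2 was found in 2.91% to 10.5% of luminal and 1.17% to 3.67% of macrophage gate cells, and Col25a1 in 1.60% to 6.13% against 0.101% to 2.08%. In every tumour most luminal cells thus had no UMI of these chains at this depth.

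**Figure D4:**
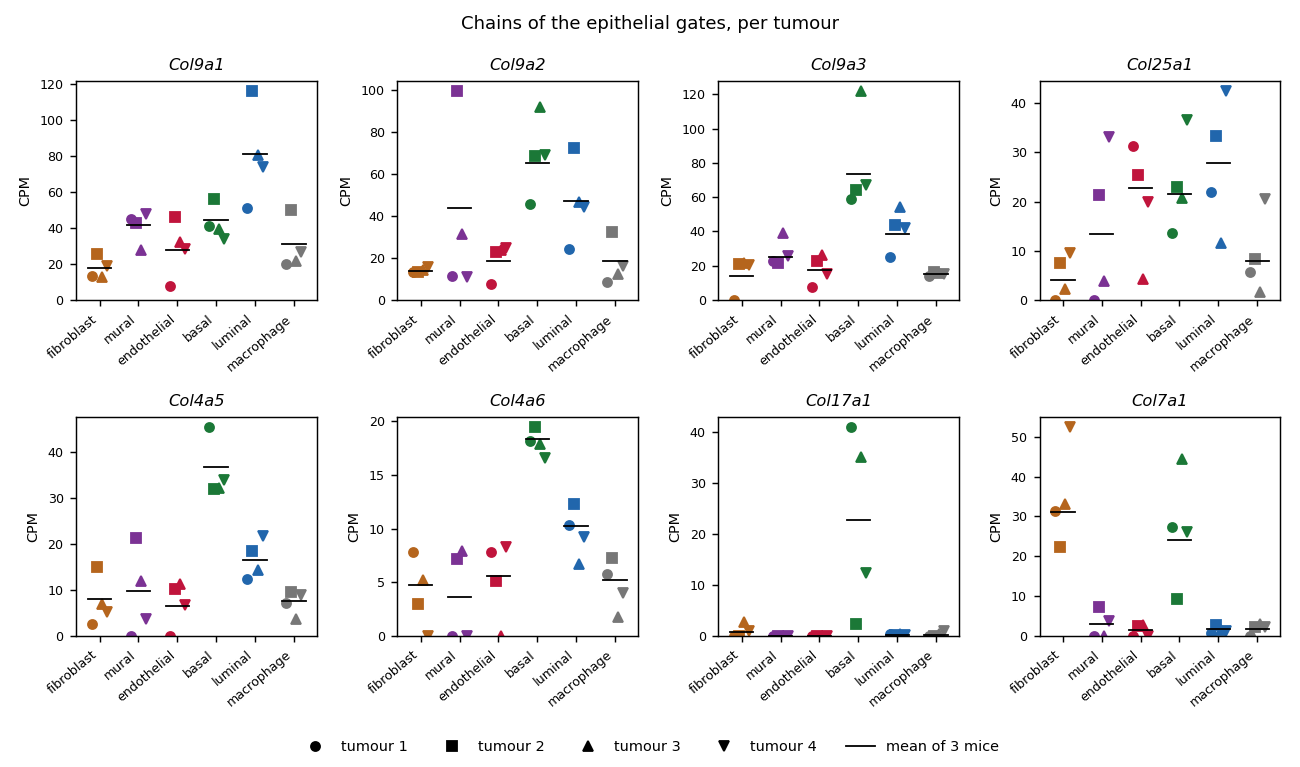
Level (CPM, from 0) of 8 chains in 6 gates; each symbol is a tumour and each bar the mean of 3 mice. Col9a1 is highest in luminal cells, Col9a3, Col4a5 and Col4a6 in basal cells of every mouse, Col17a1 is low outside the basal gate, and Col25a1 differs between tumours 3 and 4 of the same mouse.

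Col14a1 set the macrophage gate apart from other cells outside the stroma. It stood at 22.1, 24.0 and 22.2 CPM in the macrophage gate of mice 1 to 3 and at 1.19, 0.593 and 1.44 CPM in luminal cells (luminal over macrophage -4.64 ± 0.45, edgeR adjusted p = 4.07e-06), and it passed under all 11 alternatives. As a percent of the fibroblast level this was 6.43% (4.05% to 8.99% by mouse), while Col1a1 stood at 0.624% (0.403% to 1.06%), Col3a1 at 0.561% and Col6a1 at 0.926% of their fibroblast level in the same gate. Endothelial and basal cells held Col14a1 at 0.552% and 0.83% of the fibroblast level. At 1500 UMIs a cell, 2.63% to 5.07% of macrophage gate cells had a Col14a1 UMI (3.41% to 7.58% unthinned), against 0.102% to 0.303% of luminal cells (0.255% to 0.600% unthinned). In all, 6 chains were lower in luminal than in macrophage gate cells (21.0% of all genes tested): Col14a1, Col4a1, Col5a2, Col6a1, Col15a1 and Col26a1. Of these, 4 were lower in 3 of 3 mice, and Col4a1 and Col26a1 in 2. The number was 2 without mouse 1 and 3 without mouse 3. Col4a1 did not pass without the count filter (adjusted p = 0.12), the mouse as a block (0.074), mouse 1 (0.30) or mouse 3 (0.29), Col15a1 did not without the count filter (0.090), mouse 1 (0.13) or mouse 3 (0.21), and Col5a2 (0.14) and Col6a1 (0.078) did not without mouse 1.

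The fibroblast gate itself was divided by collagen chain. Fibroblasts with at least 2 UMIs of Postn and Lrrc15 and none of Clec3b and Dpt (matrix-type, 82, 54 and 563 cells in mice 1 to 3) were set against those with the reverse (adventitial-type, 22, 44 and 69 cells). Of 18 chains that could be tested, 12 were higher in matrix-type cells (6.99% of all 2218 genes tested) and 1, Col14a1, was lower (6.13% of all genes); the median was 1.46 on the log2 scale over these chains and 0.01 over all genes tested. Col12a1 stood at 914, 943 and 840 CPM in matrix-type and at 30.5, 81.7 and 49.2 CPM in adventitial-type cells of mice 1 to 3 (3.87 ± 0.28, edgeR adjusted p = 2.24e-07). Col8a1 stood at 288, 1247 and 353 CPM against 0, 75.4 and 55.3 CPM (3.53 ± 0.36, adjusted p = 1.04e-05), and Col11a1 at 190, 162 and 286 against 30.5, 44.0 and 24.6 CPM (2.67 ± 0.40). Col8a1 did not pass without the mouse as a block (3.40, adjusted p = 0.071). Col5a1 failed with DESeq2 (0.15), without mouse 1 (0.22) or mouse 2 (0.40), and with tumours as units (0.059). Col4a2 failed with DESeq2 (0.077), without the block (0.16), without mouse 3 (0.086) and with tumours as units (0.11). Col15a1 failed without the block (0.15), without mouse 1 (0.076) and with tumours as units (0.054).

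Col14a1 went the other way, at 224, 411 and 179 CPM in matrix-type and 670, 704 and 480 CPM in adventitial-type cells (-1.24 ± 0.23, adjusted p = 0.00122), and the 2 types did not overlap. The major fibrillar chains did not move together: Col1a1 (1.92 ± 0.23) and Col1a2 (1.46 ± 0.21) were higher in matrix-type cells, whereas Col3a1 was at 4601 ± 612 and 4706 ± 595 CPM (-0.05 ± 0.11, adjusted p = 0.87). The type VI chains Col6a1 (1.45 ± 0.25), Col6a2 (1.71 ± 0.23) and Col6a3 (2.05 ± 0.25) were higher in matrix-type cells in 3 of 3 mice, Col6a1 at an adjusted p of 0.0503 without mouse 1. Col7a1 held 119 UMIs in matrix-type cells (55.3 ± 10.0 CPM) and 0 in adventitial-type cells, and Col8a2 held 102 (67.7 ± 34.8 CPM) and 0. Both had too few UMIs for the test. The adventitial-type cells also held fewer UMIs of all genes, 32812, 159065 and 162606 in mice 1 to 3. The matrix-type cells held 173911, 197249 and 1813307, so the zeros do not show absence.

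**Figure D5:**
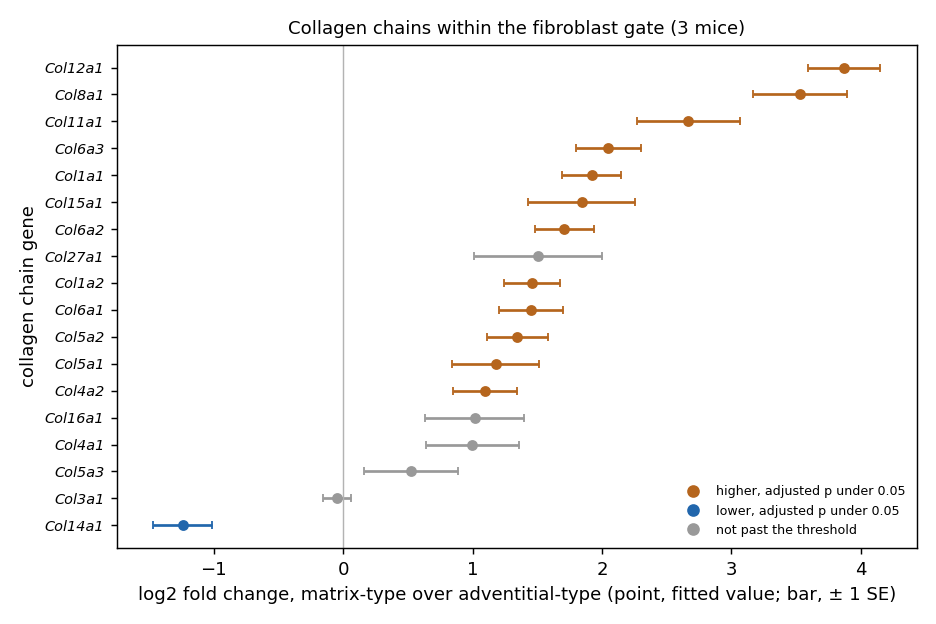
Fitted log2 fold change of matrix-type over adventitial-type fibroblasts for the 18 chains tested; points are fitted values over 3 mice and bars 1 SE on each side. Col12a1, Col8a1 and Col11a1 lie farthest to the right, Col3a1 near 0, and Col14a1 is the chain called lower.

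Between the glands of mouse 3, several fibroblast chains differed by more than counting error, in both directions. In the fibroblast gate, the thoracic over inguinal ratio was 9.43 (95% interval 5.87 to 16.1) for Col26a1, with 146 against 15.5 CPM, and 11.1 (4.20 to 41.8) for Col13a1, with 38.3 against 3.44 CPM. Col4a1 and Col4a2 gave 3.33 (2.92 to 3.81) and 2.84 (2.51 to 3.23), and Col11a1 2.00 (1.69 to 2.39). Col12a1 was lower in the thoracic tumour, 355 against 1005 CPM (0.354, 0.323 to 0.387), as were Col14a1 (0.439, 0.383 to 0.503) and Col8a1 (0.519, 0.459 to 0.588). Col1a1 and Col1a2 differed less, with ratios of 0.715 and 0.804. The 2 tumours are single samples, the intervals cover counting error only, and 68 of the 117 cells set aside were fibroblast and basal gate cells of the thoracic tumour.

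The enzymes and partners of collagen, 51 genes in 6 lists of which 45 could be tested, were higher in fibroblasts than in luminal cells for 40 genes and lower for 3 (median log2 fold change 5.09), where 26.3% and 23.1% of all genes tested were. All 9 fibril organisers were higher, among them Tnxb (165 ± 85.0 against 0.226 ± 0.122 CPM) and Ogn (159 ± 107 against 0.333 ± 0.120 CPM), and so were all 4 tested cross-linking enzymes, with Lox at 169 ± 69.0 against 0.460 ± 0.296 CPM. Folding and modification genes, such as the prolyl and lysyl hydroxylases, were higher for 14 of 16 tested, and the collagen receptor Ddr1, the prolyl 3-hydroxylase P3h2 and the export factor Mia2 were the 3 lower ones. In mural cells 25 were higher than in luminal cells and 1 was lower (9.56% and 7.77% of all genes). There Aspn (277 ± 60.9 against 0.885 ± 0.351 CPM), Pcolce (312 ± 158 against 2.30 ± 1.06 CPM) and Loxl2 (77.2 ± 21.7 against 0.960 ± 0.188 CPM) led.

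Endothelial cells had 17 of the 45 higher and 3 lower than luminal cells (18.1% and 16.9% of all genes). Sparc, a collagen-binding glycoprotein, was at 4325 ± 413 against 49.3 ± 25.8 CPM, and the chaperone Fkbp10 at 60.2 ± 9.6 against 1.56 ± 1.08 CPM. Plod1, a lysyl hydroxylase, was at 158 ± 23.4 CPM in endothelial, 35.9 ± 8.8 in mural and 17.3 ± 1.2 in luminal cells and was higher in endothelial than in mural cells (1.88 ± 0.28, adjusted p = 3.97e-06). In basal cells 10 were higher than in luminal cells (4.93% of all genes), among them Postn (150 ± 134 against 9.26 ± 4.45 CPM) and Sparc (370 ± 173 against 49.3 ± 25.8 CPM). Mural cells had 29 lower and 2 higher than fibroblasts (8.84% and 4.77% of all genes); the collagen receptor subunit Itga1 was higher (253 ± 58.2 against 41.8 ± 16.4 CPM), and Loxl1 lower (25.2 ± 3.0 against 694 ± 116 CPM). Ogn had 0 UMIs in mural and 440 in fibroblast cells. Luminal cells had 4 of the genes higher and 14 lower than macrophage gate cells (19.8% and 21.0% of all genes), with the procollagen chaperone Serpinh1 higher (96.6 ± 20.4 against 46.5 ± 16.3 CPM) and the collagen receptor Lair1 of leukocytes lower (0.189 ± 0.104 against 115 ± 27.5 CPM).

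The rarest chains gave few UMIs in any gate. Col23a1, membrane-spanning, held 87 UMIs in fibroblasts (15.4 ± 8.4 CPM) and at most 3 in any of the mural, endothelial and basal gates. Col4a4 held 118 UMIs in luminal cells (1.52 ± 0.40 CPM) and its mural mean of 3.74 CPM rested on 1 UMI. Col19a1 held 41 UMIs in luminal cells (0.495 CPM), 1 in macrophage gate cells and 0 in the other 4 gates. Those 4 gates were far smaller than the luminal gate, so their zeros do not show a lower level. Col11a2 held 30, Col20a1 17 and Col10a1 6 UMIs in luminal cells, and their highest means, in basal or mural cells, rested on 5, 2 and 2 UMIs. Cells of no gate held 49 of the 90 Col11a2 UMIs and 12 of the 31 Col10a1 UMIs, more than any gate did.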

How the data were processed

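The labels describe single-cell RNA profiling of 4 mammary tumours. The deposited values are whole UMI counts per gene and cell barcode, with no normalization. FastQC and Cell Ranger 2.2.0 with mm10 (GRCm38) are named per the submitters' processing notes; the library chemistry is not given in the sources used here. The collagen genes and the other lists were chosen with earlier results of these data known.

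Barcodes with under 300 genes (24) or at least 15% mitochondrial UMIs (0) were left out. No doublet caller was run: cells in more than 1 non-luminal gate were set aside, and leaving out the 8% deepest cells was an alternative. Counts were summed per mouse and gate (at least 20 cells, or 10 within a gate) and compared with edgeR 4.0.16 (TMM, filterByExpr, quasi-likelihood F test, mouse as block because gates come from the same animals), with Benjamini-Hochberg adjustment over all genes tested and calls at 0.05. The 6 gates shared 1 fit, so comparisons that use the same gate share its samples. The script was tested on simulated data. The 3 mice limit the precision of every SD. Shares of cells used counts thinned to 1500 UMIs, leaving out 806 shallower luminal, 624 macrophage, 75 basal, 89 endothelial, 141 fibroblast and 36 mural gate cells. DESeq2 1.42.0 was an alternative. Intervals are 95% Poisson limits, with exact binomial limits for ratios and shares.

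Named genes: any collagen chain may be named; full values go to chains at 100 CPM or more in their highest gate and to those highest in an epithelial gate or higher in luminal than macrophage gate cells in 3 of 3 mice. From the lists, up to 3 genes per direction with the largest change, the same sign in 3 of 3 mice and at least 50 CPM were eligible.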

Additional observations from a re-analysis of the deposited data

Results flagged for a closer look

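In 42 sets of 4 tumours (a chain in a gate), 3 tumours stood apart from the other 3 by a gap, relative to the whole range, above Dixon's 95% critical value; chance flags about 1 in 20 such sets. Col9a3 was at 122 CPM in the basal gate of tumour 3, against 59.1 to 67.1 CPM in the other tumours. Col4a5 was at 45.4 CPM in the basal gate of tumour 1, against 32.0 to 34.0 CPM. Col20a1 was at 1.43 CPM in the basal gate of tumour 3 and at 0 in the other tumours, on 2 UMIs.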

How the results depend on the processing

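The 108 called fold changes of chains given with full values were refitted under up to 11 alternatives, 1128 values in all. None reversed, 1021 still passed and 107 did not. Without mouse 1, 2 or 3 the number of chains ran from 1 to 17 (higher in basal than luminal), 5 to 8 and 2 to 6 (higher and lower in endothelial than luminal), 0 to 3 (lower in mural than luminal), 2 to 4 and 9 to 20 (higher and lower in mural than fibroblast), 0 to 3 and 6 to 10 (higher and lower in endothelial than mural), 4 to 9 and 2 to 9 (higher and lower in luminal than macrophage), and 0 to 1 (higher with tip genes). Without the mouse as a replicate block, the pairing of gates from the same animals, counts were 0 (lower in mural than luminal), 3 (lower in endothelial than luminal), 5 and 0 (higher and lower in basal than luminal), 1 (higher in mural than fibroblast) and 4 (higher in luminal than macrophage). DESeq2 gave 3 lower in endothelial than luminal. Doubled gate thresholds gave 2 lower in mural than luminal, 2 higher in mural than fibroblast and 12 lower in luminal than macrophage. Gates without overlap gave 4, 2 and 13 for the same comparisons. Tumours as units, which takes tumours 3 and 4 of mouse 3 as separate units, gave 10 lower in luminal than macrophage and 2 higher with tip genes. Without the deepest cells, 3 were lower in mural than luminal and 1 was higher with tip genes. Bounds against mural cells at 0 UMIs were also computed without tumour 3 and with the mean over mice, both chosen after seeing the data. The cause of these shifts was not tested. Where samples were left out, fewer mice or cells entered the fit. Doubled thresholds were not run for endothelial comparisons or within gates, nor gates without overlap for basal cells, because too few cells were left in a mouse. All 48 unthinned luminal shares were above the thinned ones, 31 of them beyond the thinned share's interval. Few mural cells limit what mural comparisons can show.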
